A study of Homo sapiens with 2 samples.

Results

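Deletion sites of the splicing factor SF3A1 that lay in the bodies of short protein-coding genes are described here, a short gene being one with an annotated body under 20 kb. A site belonged to this group if its base fell between the start and end of such a gene on a nuclear primary chromosome, and where several short genes overlapped it was given to the shortest. There were 445 such sites of 2960 in all, in 373 genes. They came from crosslinking and immunoprecipitation (CLIP) with an anti-SF3A1 antibody in C4-2B, an androgen-independent prostate cancer epithelial line derived from LNCaP. Cells of a derivative made ready for CRISPR interference, with no guide named in the labels, were harvested 48 h after seeding and exposed to ultraviolet light of 254 nm at 400 mJ/cm2; the immunoprecipitation took 2 µg of antibody. Both libraries belong to this 1 group, they were pooled by the authors, and no untreated, input or mock library was analysed here. No value therefore carries a spread between replicates, and all intervals cover counting error only.

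SF3A1 is a subunit of the U2 small nuclear ribonucleoprotein (snRNP), the particle that recognises the intron branch point early in spliceosome assembly, and its ubiquitin-like domain contacts U1 snRNA. In CLIP, a reverse transcriptase that reads over a crosslinked base can skip it, and deletions in the tags are read as marks of contact between protein and RNA. Whether each deletion here marks such a contact was not tested. At 330 of the 445 sites every tag carried the deletion, and neither an input library nor the genome of the line was compared. Short human genes include many that are transcribed at high levels in most cells, such as those for ribosomal proteins, translation factors and splicing factors, and their introns are short. For each site the authors gave the number of tags over the base and the number that carried the deletion; their quotient is called the deleted share below.

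Reference bases could be read at only 7 of the 445 sites, because no genome was used and the RefSeq tables cover gene starts and microRNA hairpins. These sites are shown since they are the ones where the deleted base itself can be seen. Sequences are from RefSeq on GRCh38.p14, read 5′ to 3′ on the strand of the site, with the deleted base in capitals and up to 10 bases on each side.
KRT10, chr17:40822586-40822606, plus strand: ggtgatgctgTttagcccagg
NDUFS3, chr11:47579126-47579146, plus strand: gcgggatcttGggggcctcgg
TRMT6, chr20:5950437-5950457, minus strand: aaccgaggagGaggggcggga
ZNF24, chr18:35343892-35343912, minus strand: ggtcctgagtGctgggaagag
TRIM39, chr6:30329064-30329084, plus strand: tgggggttgtGtgtcagttta
FAM240C, chr2:241900704-241900714, plus strand: ggaggggcgtC
MIR6807 hairpin in TRIM28, chr19:58550285-58550376, plus strand: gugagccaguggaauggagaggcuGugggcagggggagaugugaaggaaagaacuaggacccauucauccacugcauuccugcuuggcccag

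The deleted base was G in 4 of the 6 windows at gene starts, T in 1 and C in 1, and it was G in the hairpin. The windows over the KRT10 and FAM240C sites are those of the named genes. The other windows at gene starts belong to other entries: KBTBD4 for NDUFS3, MCM8 for TRMT6, LOC124904283 for ZNF24 and TRIM39-RPP21 for TRIM39. The TRIM39 site lay 2606 nt, the FAM240C site 1872 nt and the ZNF24 site 519 nt from the annotated gene start. In NDUFS3, a subunit of respiratory complex I, the deleted G stood in a run of 5 identical bases, in KRT10 the T stood in a run of 3, and in TRMT6 the G in a run of 2; within a run the deleted copy cannot be told apart. The deletion was present in every tag at all 7 sites, with 66 tags in KRT10, 26 in NDUFS3, 27 in TRMT6, 127 in ZNF24, 182 in TRIM39, 54 in FAM240C and 15 in TRIM28. NDUFS3 was hit 63 nt and TRMT6, a subunit of a tRNA methyltransferase, 87 nt from the annotated gene start, on the strand of the gene. The KRT10 site lay at nucleotide 19 of this keratin gene but on the opposite strand, inside the antisense transcript KRT10-AS1, and the FAM240C site lay opposite to its gene, inside LINC01237. The TRIM28 site was at base 25 of the 92 of the hairpin, whose letters begin with gu and end with ag; TRIM28 encodes a transcriptional corepressor. These few sites do not describe the base preference of the other members.

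Short genes held sites less often than long genes but more densely per base. A site was found in 373 of 8874 protein-coding genes under 20 kb, a background of 4.2 percent (95% Clopper-Pearson interval 3.80 to 4.64). The same share was 14 percent of 10215 genes of 20 to 300 kb, 20.2 percent of 773 genes over 300 kb and 9.85 percent of all 19862 protein-coding genes. Per Mb of gene body, introns included, the short genes held 6 sites (exact Poisson 95% interval 5.46 to 6.58), against 2.35 (2.24 to 2.46) at 20 to 300 kb and 0.660 (0.586 to 0.741) over 300 kb. The density in short genes was thus 2.55 and 9.09 times as high, and the 3 intervals did not overlap. The files give no RNA levels, so the part of abundance in the density was not tested. Short genes made up 44.7% of the protein-coding genes and 5.73% of their summed body length, and they held 17.3% of the sites in protein-coding genes.

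**Figure D1:**
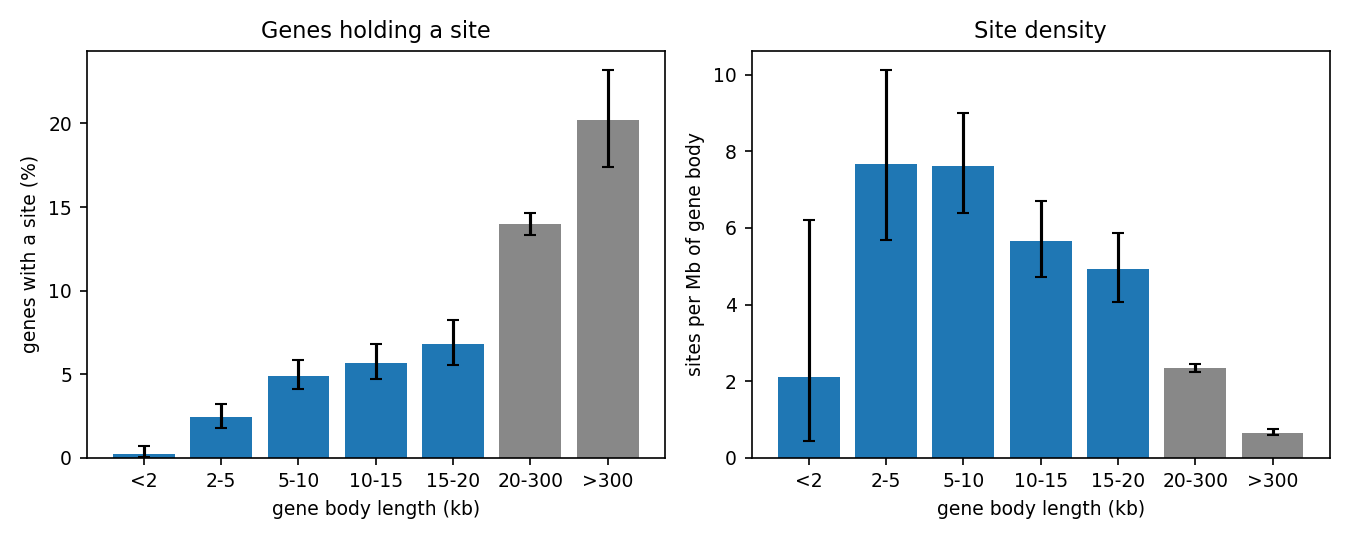
Percent of protein-coding genes that hold a site (left, exact 95% binomial intervals) and sites per Mb of gene body (right, exact 95% Poisson intervals) by gene body length in kb. Blue bars are genes under 20 kb and grey bars longer genes; the percent of genes with a site is higher in each longer class while the density is highest between 2 and 10 kb.

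Within the short genes, the smallest were almost free of sites. Of 1218 genes under 2 kb, 3 held a site (0.246%, 95% Clopper-Pearson interval 0.0508 to 0.718): RPS27, a small-subunit ribosomal protein, with 84 of 84 tags, WDR83OS, an endoplasmic reticulum protein, with 264 of 264, and the uncharacterised LOC107985149 with 61 of 61. The share was 2.43% of 1895 genes of 2 to 5 kb, 4.91% of 2466 genes of 5 to 10 kb, 5.69% of 1880 genes of 10 to 15 kb and 6.78% of 1415 genes of 15 to 20 kb. Density ran differently, with 2.12 sites per Mb under 2 kb (exact Poisson 95% interval 0.437 to 6.20), 7.67 (5.70 to 10.1) at 2 to 5 kb, 7.61 (6.40 to 8.99) at 5 to 10 kb, 5.65 (4.73 to 6.70) at 10 to 15 kb and 4.92 (4.08 to 5.88) at 15 to 20 kb. The interval of the 5 to 10 kb class was clear of those under 2 kb and at 15 to 20 kb, and all other pairs of intervals overlapped. The median body length was 10860 nt for the short genes that held a site and 7572 nt for all short genes.

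Sites in short genes were covered about as deeply as those in longer genes. A median of 50 tags lay over a site (interquartile range 27 to 87; the deepest site had 1268), deleted tags had a median of 45, and no site had fewer than 13 deleted tags. At 20 to 300 kb the median was 53 tags (29 to 92) and over 300 kb it was 55 (32 to 99). In total 34916 tags covered the short-gene sites and 29624 of them carried the deletion. The plus strand held 229 sites and the minus strand 216. Sites occurred on 22 chromosomes, in 41 of 934 short genes of chromosome 1, 41 of 867 of chromosome 19 and 15 of 211 of chromosome 22. Chromosomes 4 (2 of 238) and X (8 of 457) had low shares, and none of the 113 short genes of chromosome 21 held a site (exact upper bound 3.21%).

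Most short genes with a site held a single one. There were 323 genes with 1 site, 34 with 2, 12 with 3, 2 with 4 and 2 with 5. In the 50 genes with several sites, all sites lay on 1 strand in 49, the exception being AP1G2. Neighbouring sites of the same gene and strand were a median of 2091 nt apart (interquartile range 853.5 to 3997, 71 pairs), and 4 pairs lay within 50 nt. The closest pair, 6 nt apart in the WDR74 body, belonged to the U2 snRNA gene RNU2-2 described below. The next, 11 nt apart, was in BSG, which encodes the membrane glycoprotein basigin: 114 tags covered each of its positions 583465 and 583476 on chromosome 19, and 32 and 79 of them carried the deletion. In RPL6 a pair lay 43 nt apart, with 41 of 41 and 61 of 61 tags.

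The genes richest in sites were led by splicing regulators. HNRNPU (chromosome 1, 244850297 to 244864543, minus strand) encodes a nuclear matrix-associated RNA-binding protein, and its 5 sites lay 510, 1841, 3410, 5078 and 7771 nt from the gene start. In that order the deletion was in 143 of 143, 192 of 197, 44 of 44, 19 of 56 and 22 of 22 tags. The site at 5078 nt stood out, with a deleted share of 33.9% (95% Clopper-Pearson interval 21.8 to 47.8), and the remaining 6476 nt past the last site had none. SRRM2 (chromosome 16, 2752638 to 2771412, plus strand) encodes a large serine- and arginine-rich scaffold of nuclear speckles. Its 5 sites carried the deletion in 85 of 86, 17 of 17, 101 of 101, 22 of 22 and 51 of 51 tags, from 2738 to 17465 nt from the start, so that all were complete or nearly so. HNRNPL, an RNA-binding repressor and activator of exons, held 3 sites in the part of its body beyond 10151 nt of 15978 nt, with 36 of 36, 42 of 45 and 77 of 77 tags.

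**Figure D2:**
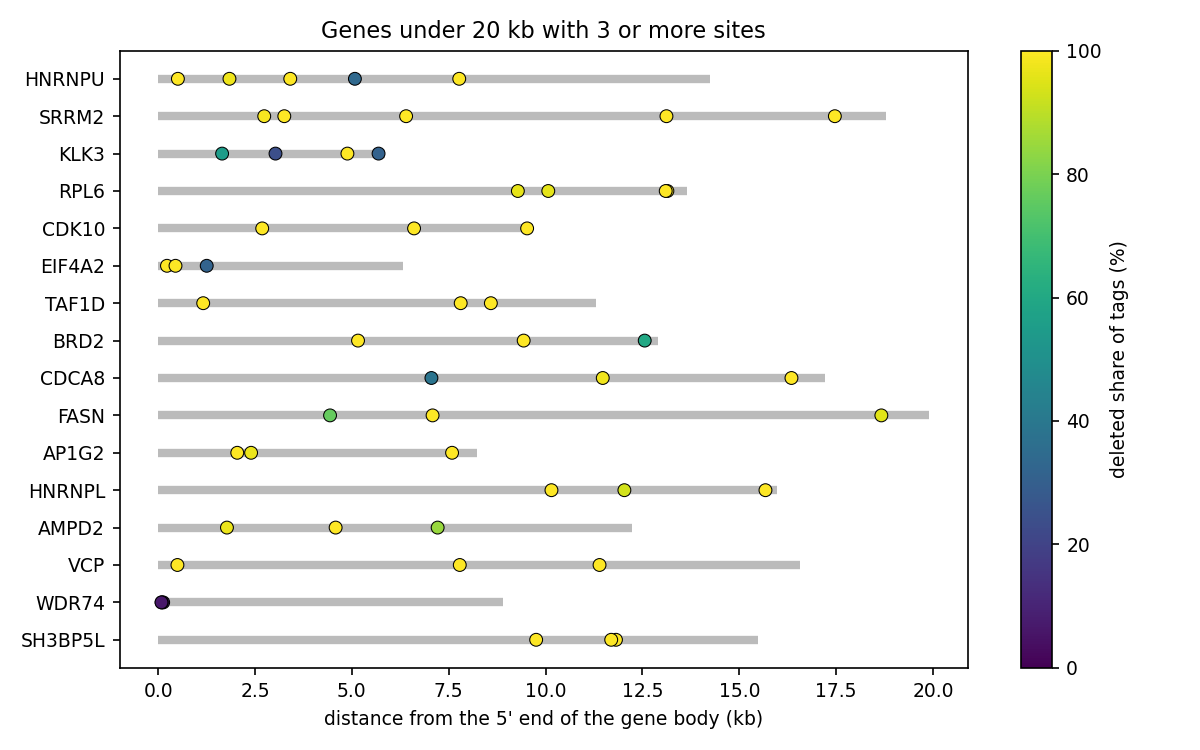
Sites along the 16 protein-coding genes under 20 kb with 3 or more sites, drawn to scale from the 5′ end of each gene body (grey bar, kb) and coloured by the deleted share of tags (%). HNRNPU and SRRM2 hold 5 sites each; the 3 WDR74 sites coincide at the gene start, and 8 of the 16 genes hold a site with a share under 90%.

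KLK3, the androgen-induced gene of prostate-specific antigen, was the densest of the genes with 3 or more sites. Its body of 5850 nt on chromosome 19 (50854915 to 50860764, plus strand) held 4 sites, or 0.684 per kb. From the 5′ side they had the deletion in 47 of 86, 13 of 54, 81 of 81 and 27 of 87 tags, so 1 site was complete and the others were at 54.7% (95% Clopper-Pearson interval 43.5 to 65.4), 24.1% (13.5 to 37.6) and 31.0% (21.5 to 41.9). The last of them lay 161 nt before the annotated gene end. KLK2, the neighbouring kallikrein, held 1 site with 28 of 28 tags.

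Other genes with several sites belong to translation, transcription and metabolism. RPL6, a large-subunit ribosomal protein, held 4 sites between 9284 and 13143 nt of 13655 nt, with 27 of 28, 24 of 25, 61 of 61 and 41 of 41 tags. EIF4A2, an RNA helicase of translation initiation, held 3 sites in the part nearest its start, at 228, 448 and 1254 nt of 6321 nt, with 78 of 78, 101 of 101 and 136 of 430 tags. The deep and partial one lay inside the snoRNA gene SNORD2. TAF1D, a subunit of the RNA polymerase I selectivity factor and a host of snoRNAs, had 37 of 37, 95 of 95 and 165 of 165 tags at its 3 sites; the second lay in the body of MIR1304. CDK10, a cyclin-dependent kinase, had 373 of 374, 62 of 62 and 124 of 124 tags, the last of them 143 nt before the gene end. BRD2, a reader of acetylated histones, had 182 of 182, 41 of 41 and, 354 nt before its end, 33 of 55 tags. CDCA8, the borealin subunit of the chromosomal passenger complex, had 168 of 438, 45 of 46 and 33 of 33 tags. FASN, the fatty acid synthase, had 13 of 17, 67 of 67 and 112 of 117. In each of BRD2, CDCA8 and FASN, 1 partial site thus stood beside sites at or near completeness.

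In most lists of RNA-processing genes the share with a site was above the 4.2 percent of all short genes, though the lists are small and their intervals wide. Lists are described by counts alone, with no test, because they were chosen with earlier results of these data known. Some genes are in more than 1 list, so the lists are not separate groups. The list of SR proteins, which are exon-binding splicing activators, also took in the speckle scaffold SRRM2. Of its 10 genes under 20 kb, 5 held a site (50%, 95% Clopper-Pearson interval 18.7 to 81.3). Besides SRRM2 these were SRSF2 with 225 of 228 and 57 of 68 tags, 187 nt apart, SRSF3 with 19 of 19 and 69 of 71, SRSF5 with 44 of 44 and SRSF7 with 25 of 25. Of 14 hnRNP genes, 4 held a site (28.6%, 8.39 to 58.1). HNRNPAB had 71 of 71 tags, while HNRNPA2B1 was partial at 37 of 57, or 64.9%. Core snRNP protein genes had 3 of 22 (13.6%, 2.91 to 34.9, an interval that includes the background), namely the U2 protein gene SNRPA1 (50 of 50 tags), SNRPB, whose product is a subunit of the Sm ring (36 of 40), and PHF5A, a subunit of SF3B in the U2 snRNP (62 of 70). Among 14 genes of splicing kinases, L-type cyclins and the exon junction complex, a list drawn up after the sites had been seen, 5 held one (35.7%, 12.8 to 64.9). CLK1, a kinase of SR proteins, had 44 of 144 tags at 1 site and 25 of 25 at another 212 nt away; CLK2 had 28 of 28 and the cyclin CCNL2 45 of 51. RNPS1 and CHTOP, with 48 of 48 and 29 of 29 tags, were complete. Of 9 genes of RNA export and the nuclear pore, CHTOP and NXF1 had a site; NXF1, the main export receptor of messenger RNA, had 71 of 219 tags. Among 17 DDX and DHX helicase genes, a list also drawn up later, 5 held 1 site each (29.4%, 10.3 to 56.0). These were DDX47, DDX56, DDX55, DDX41 and DHX38, with 21 to 90 tags and deleted shares of 98.9% or more. DDX47, DDX55 and DDX56 are also in the ribosome biogenesis list below.

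**Figure D3:**
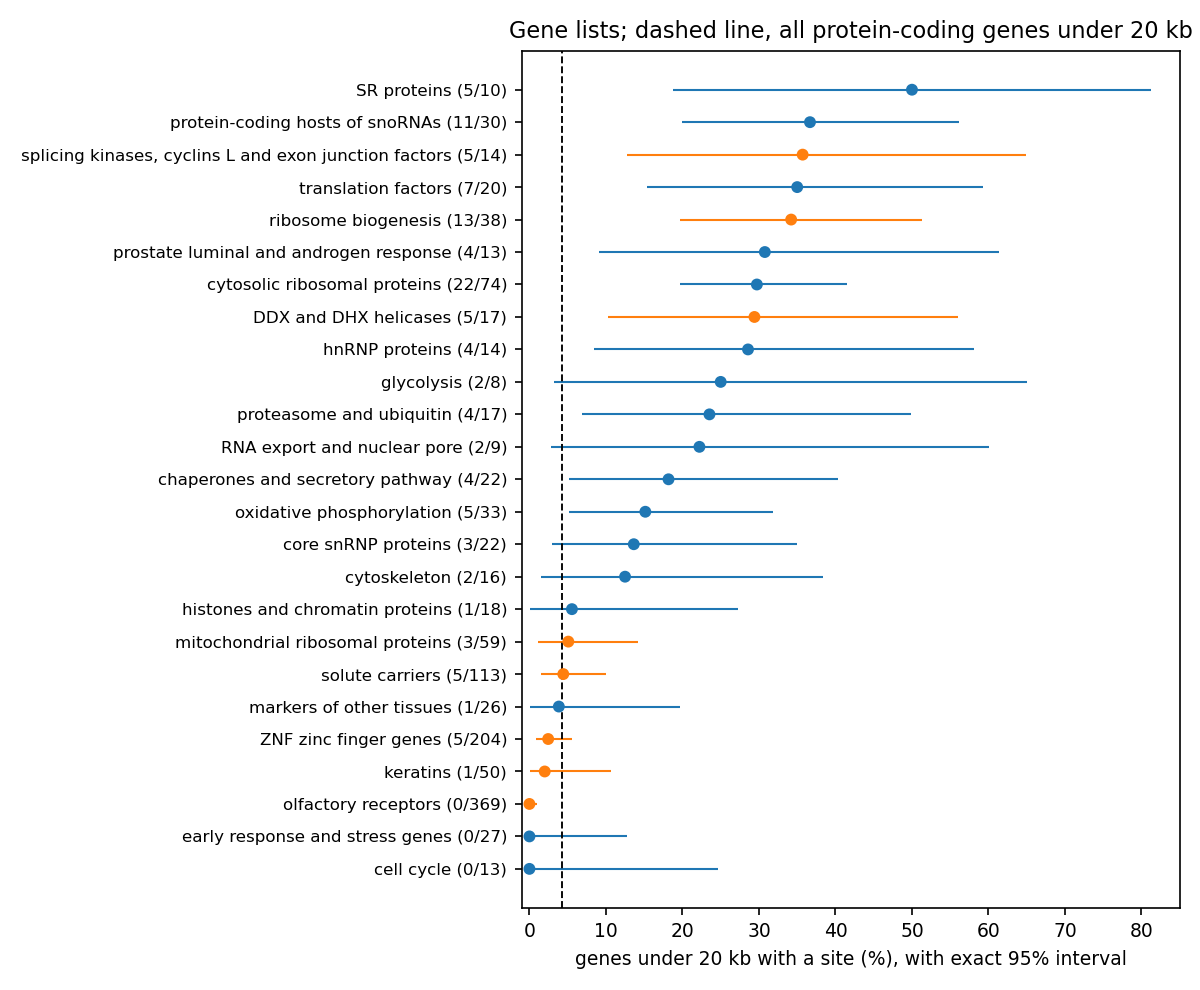
Percent of the protein-coding genes under 20 kb of each list that hold a site, with exact 95% binomial intervals; the counts stand beside each name. Orange lists were added after the sites of short genes had been seen, blue lists were drawn up with earlier results of these data known, and the dashed line is the 4.2 percent of all protein-coding genes under 20 kb.

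Genes of protein synthesis formed the largest group. Of 74 cytosolic ribosomal protein genes under 20 kb, 22 held a site (29.7%, 95% Clopper-Pearson interval 19.7 to 41.5), although their median length was 4750 nt. The 27 sites included 234 of 234 tags in RPS2, 166 of 167 in RPL27, 114 of 115 in RPL37 and 114 of 114 in RPS6. RPL3 had 26 of 229 tags inside SNORD83B and 22 of 22 elsewhere, RPS18 had 13 of 13 and 27 of 27, and RPL23 had 13 of 23. These genes have processed pseudogenes that can share tags, so the gene of such a site is uncertain. Of 20 translation factor genes, 7 held a site (35%, 15.4 to 59.2), among them EEF1D with 92 of 93 and 15 of 15 tags, PABPC1 with 38 of 39 and 51 of 51, and EIF3I with 164 of 164. The 7 include EEF1G, whose only site lay on the opposite strand. Ribosome biogenesis, listed later, had 13 of 38 genes (34.2%, 19.6 to 51.4), or 12 without the snRNA sites in WDR74. BRIX1 had 137 of 138 tags, TSR1 105 of 105, NOL6 83 of 84 and NOC2L, hit 51 nt from its start, 74 of 74. Protein-coding hosts of snoRNAs had 11 of 30 genes with a site (36.7%, 19.9 to 56.1), and RACK1, a ribosomal scaffold protein, was partial at 70 of 96 tags. Of these hosts, RPL3, RPL13A, RPL17, RPL23, EIF4A1, EIF4A2 and NOP56 were already counted in the preceding lists of protein synthesis genes. Of 59 mitochondrial ribosomal protein genes, also listed later, 3 held a site (5.08%, 1.06 to 14.2), MRPS30, MRPL30 and MRPL21 with 71 of 71, 60 of 60 and 57 of 60 tags. The interval of that list included the background, and those of the cytosolic ribosomal, translation factor and biogenesis lists did not. All these lists were chosen with results of these data known, so the comparison is a description and not a test of enrichment.

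Among proteostasis and energy metabolism genes, 3 lists had shares whose intervals lay above the background of 4.2 percent. This too is a description and not a test, because the lists were chosen with earlier results of these data known. Among 22 chaperone and secretory genes 4 held a site (18.2%, 95% Clopper-Pearson interval 5.19 to 40.3): HSPA8 with 112 of 112 tags, HSP90B1 with 101 of 102, HSPA5 with 32 of 32 and HSP90AB1 with 26 of 117. Proteasome and ubiquitin genes had 4 of 17 (23.5%, 6.81 to 49.9), in PSMC1 (201 of 201 tags), PSMD8 (83 of 83), PSMA4 (70 of 71) and PSMC5 (45 of 45). Oxidative phosphorylation had 5 of 33 (15.2%, 5.11 to 31.9), including ATP5F1B with 16 of 16 and 44 of 46 tags, the latter in SNORD59B, NDUFV1 with 61 of 61 and ATP5MC1 with 46 of 46. The glycolysis and cytoskeletal intervals included the background. Glycolysis had ENO1 (82 of 82 tags) and PGAM1 (18 of 18) of 8 genes (25%, 3.19 to 65.1), and the cytoskeletal list TUBB4B (71 of 71) and PFN1 (57 of 58) of 16 (12.5%, 1.55 to 38.4). Of the 18 histone and chromatin protein genes only the histone variant gene H2AZ1 had sites (5.56%, 0.141 to 27.3), with 17 of 17 and 70 of 72 tags. None of 27 early response and stress genes (exact upper bound 12.8%) or 13 cell cycle genes (24.7%) held a site, and both bounds lay above the background. The cell cycle list does not hold CDCA8, whose sites are given above, or CDC25B, which had 161 of 162 tags.

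Sites occurred in short genes of the labelled cell type. Of 13 prostate luminal and androgen-response genes under 20 kb, 4 held a site (30.8%, 95% Clopper-Pearson interval 9.09 to 61.4): KLK3, KLK2, the pioneer factor gene FOXA1 with 44 of 44 tags and the luminal transcription factor gene SPDEF with 22 of 22. Of 11 luminal marker genes of any length, 6 had a site, 2 of them among the 6 short ones. The marker genes of basal cells (3), blood (4) and hepatocytes (3) had none, and of 3 stromal markers VIM had 1 site, with 42 of 42 tags. The basal, blood, hepatocyte and stromal lists are too small to be told from the 9.85 percent of all protein-coding genes with a site. The 6 of 11 luminal markers were not tested against that percent. Of 26 short genes marking other tissues, VIM was the only one with a site (3.85%, 0.0973 to 19.6), a share near the 4.2 percent of all short genes. None of 369 olfactory receptor genes held a site (exact upper bound 0.995%, below the 4.2 percent of all short genes). The intervals of 3 other families included that background: KRT10 alone among 50 keratin genes, on the opposite strand (2%, 0.0506 to 10.7), 5 of 204 ZNF genes (2.45%, 0.801 to 5.63) and 5 of 113 solute carriers (4.42%, 1.45 to 10.0). Of the ZNF genes, ZNF446 also had its site on the opposite strand. These 4 families were listed after the sites had been seen.

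A deleted share under 90% was more frequent in short genes than in longer ones. It was found at 43 of 445 sites (9.66%, 95% Clopper-Pearson interval 7.08 to 12.8), in 38 genes, against 5.03 percent of 2126 sites in longer protein-coding genes and 7.5 percent of all 2960 sites. The difference of 4.63 percentage points passed a two-sided Fisher's exact test over sites (odds ratio 2.02, p = 0.000339, 2571 sites in protein-coding genes). Sites of a gene are not independent; with the best covered site of each gene the shares were 8.58% of 373 and 5.05% of 1584 (Fisher's exact test, p = 0.0126). At 100 or more tags the shares were 18.2% of 88 and 7.79% of 475 sites (Fisher's exact test, p = 0.00460), and below 100 tags 7.56% of 357 and 4.24% of 1651 (Fisher's exact test, p = 0.0134). The difference also passed the test against genes of 20 to 300 kb alone (5.17% of 1837 sites, Fisher's exact test, p = 0.000789) and genes over 300 kb alone (4.15% of 289 sites, Fisher's exact test, p = 0.00602). The p-values refer to sites of this pool. With any share under 100% counted as partial, short genes had 25.8%, and the difference of 3.83 points did not pass the threshold (Fisher's exact test, p = 0.0816).

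**Figure D4:**
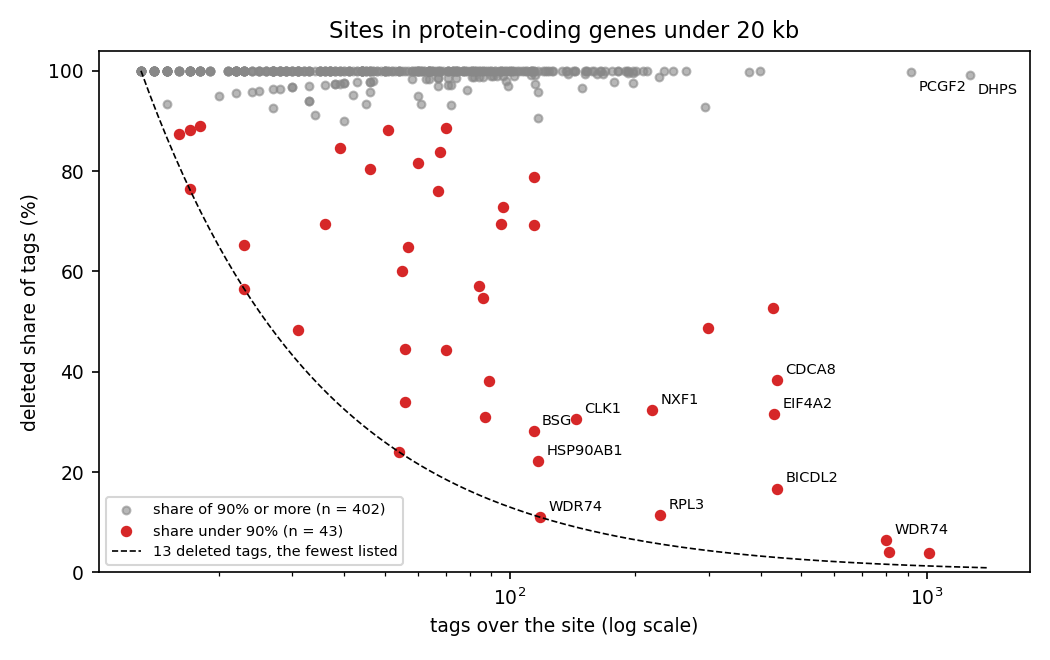
Deleted share of tags (%) against the number of tags over the site (log scale) for the 445 sites in protein-coding genes under 20 kb. Red points are the 43 sites with a share under 90% and the dashed line is the limit of 13 deleted tags; of the 9 sites with 400 or more tags, 7 are partial and 2, in DHPS and PCGF2, are above 99%.

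Several of the lowest shares were in small RNA genes. Others were in protein-coding genes of varied function, among them KLK3 and BSG, whose sites are given above. The 3 sites in the WDR74 body lay 86, 92 and 130 nt from its start, inside RNU2-2, with 51 of 798, 33 of 811 and 13 of 118 tags; tags of U2 snRNA, whose gene copies are near-identical, and of the WDR74 transcript cannot be told apart here. RPL3, in SNORD83B, had a share of 11.4% (95% Clopper-Pearson interval 7.55 to 16.2). BICDL2, a dynein adaptor gene, had 73 of 438 tags (16.7%, 13.3 to 20.5), HSP90AB1 26 of 117 (22.2%, 15.1 to 30.8), CLK1 44 of 144 (30.6%, 23.2 to 38.8) and EIF4A2, in SNORD2, 136 of 430 (31.6%, 27.3 to 36.3). The 445 shares fell into 16 under 40%, 27 from 40 to under 90%, 72 from 90 to under 100% and 330 at 100%. Genes of the lists above held 19 of the partial sites among 133 (14.3%), and other short genes 24 among 312 (7.69%). The 19 include the small RNA sites in WDR74, EIF4A2 and RPL3, and WDR74 is only in a list drawn up after the sites had been seen. This contrast was not tested. Partial sites had a median of 84 tags and the others 46. Every listed site had at least 13 deleted tags, so a low share could be seen only at high coverage. This difference in coverage is therefore at least partly set by the list.

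The sites with the most deleted tags were nearly all close to complete. DHPS, an enzyme in the formation of hypusine on a translation factor, had 1258 of 1268 tags and PCGF2, a Polycomb protein, 913 of 916. ATAT1, the tubulin acetyltransferase, had 398 of 398, CDK10 373 of 374, CD320, the transcobalamin receptor, 272 of 293 (92.8%), WDR83OS 264 of 264 and the nucleosome-binding HMGN4 246 of 246. RPS2 with 234 of 234 and SRSF2 with 225 of 228 were in the same range. PABPN1, the nuclear poly(A)-binding protein, was the exception, with 226 of 429 tags or 52.7% (47.8 to 57.5). DHPS and WDR83OS lie near each other on chromosome 19, with sites on the minus strand at 12681213 and 12668922.

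Sites occurred in all parts of the short gene bodies. The 10 equal parts of the gene, from the 5′ to the 3′ end, held 51, 35, 49, 45, 46, 38, 50, 42, 28 and 61 sites, where even spread would give 10% in each. Past the midpoint lay 219 sites (49.2%, 95% Clopper-Pearson interval 44.5 to 54.0), against 53.4% (51.2 to 55.5) in longer genes. The last 500 nt held 35 sites and the first 500 nt 37. Of the partial sites 7 of 43 (16.3%, 6.81 to 30.7) and of the others 28 of 402 (6.97%, 4.68 to 9.91) lay in the last 500 nt, with overlapping intervals. The partial ones included sites in BRD2, KLK3, SCAMP3 and MVD and both BSG positions; those in MVD and BSG came within 18 and 17 nt of the annotated end. Exon and intron boundaries were not used here, so sites in introns and in mature messages cannot be told apart.

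**Figure D5:**
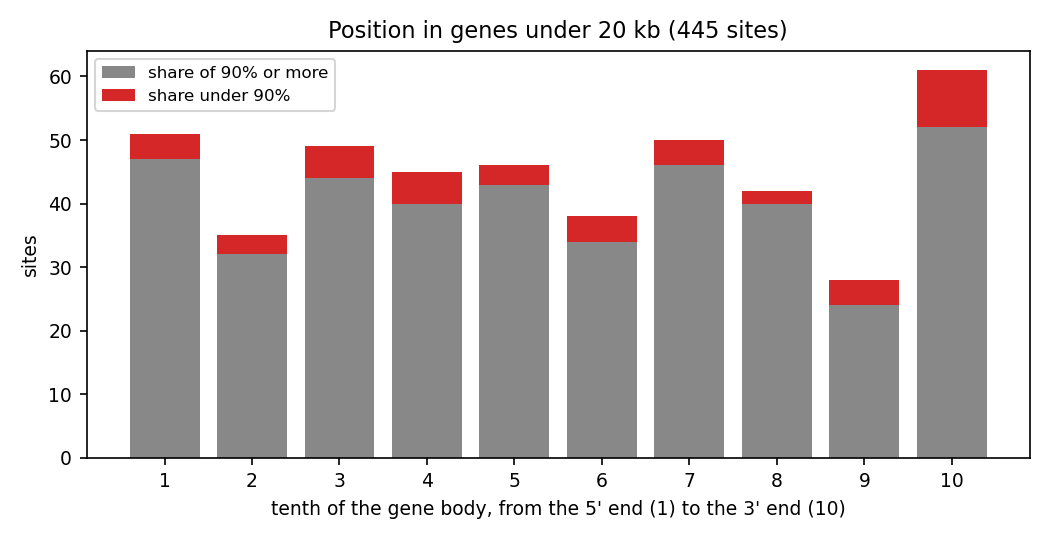
Number of sites in each of 10 equal parts of the gene body, from the 5′ end (1) to the 3′ end (10), for the 445 sites in protein-coding genes under 20 kb; where the gene strand was not known the strand of the site was used. Red segments are the 43 sites with a deleted share under 90%; the part at the 3′ end holds 61 sites and the one before it 28.

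Most sites lay on the strand of the protein-coding gene. The promoter table gave a strand for 6901 of the 8874 short genes and for 364 sites, of which 340 were on the strand of the gene (93.4%, 95% Clopper-Pearson interval 90.3 to 95.7) and 24 on the other. The share in longer genes was 95.4% of 1776 sites (94.4 to 96.4). Of the 24 opposite sites, 13 lay inside another annotated gene of their own strand, 1 inside a gene of unknown strand and 10 inside no other gene. The short gene was then often nested in or beside a longer one: the IL18BP sites (32 of 32 and 31 of 31 tags) lay on the strand of NUMA1, the GPR146 site (213 of 213) on that of CHLSN, the FLRT3 site (117 of 117) on that of MACROD2 and the GPR183 site (22 of 22) on that of UBAC2. The CEBPZOS site (174 of 178) lay on the strand of CEBPZ, the SNX22 site (90 of 114) on that of PPIB and the C1orf56 site (191 of 191) on that of CDC42SE1. For these sites the name of the short gene comes from the rule of assignment and not from the strand. Without genes that overlap another annotated gene, 176 of 179 sites (98.3%) were on the gene's strand. Sites opposite to their gene with no other gene annotated over them included those in ASB6 (100 tags), ASTE1 (94), CORO1B (73), ZNF446 (107) and EEF1G (49 of 60 tags).

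Few members fell in another annotated gene. In all, 64 sites lay inside a further gene of any kind, 10 of them inside a small RNA gene: 3 in RNU2-2, 5 in the snoRNA genes SNORD59B, SNORD2, SNORD83B, SNORD18A and SNORA53, and 2 in the microRNA genes MIR1304 and MIR6807. SNORD18A, in RPL4, had 99 of 99 tags and SNORA53, in SLC25A3, 69 of 69, so small RNA sites were not all partial. Of the 64 sites, 7 lay in more than 1 short gene.

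The limit of 20 kb divides a continuum of lengths. Just inside it were ZNF7 (19949 nt, 2 sites), ATAT1 (19948 nt, 1 site), UBE2J2 (19943 nt, 2), FASN (19899 nt, 3) and POMP (19830 nt, 1). Just outside were SEC61A1 (20043 nt), PLA2G12A (20082 nt), GRK2 (20084 nt) and OGFRL1 (20249 nt), each with 1 site. The best covered sites of these genes had 34 to 398 tags inside and 48 to 163 outside.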

How the data were processed

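Per the labels' protocols, SF3A1 was immunoprecipitated from crosslinked C4-2B cells in 2 libraries. The authors deposited 1 list; its name says that libraries were pooled, that tags are unique, and that deletions were called by crosslink-induced mutation site (CIMS) analysis with an FDR of 10 percent. Deposited counts of deleted tags and, in the name field (no score or other unit), of all tags were used as deposited, without normalization. Per the submitters' processing notes, hg38, BWA 0.7.17, cutadapt, UMI-tools and SAMtools were used; their roles are not stated in the sources used here. Depth per library is unknown, and nothing states that the libraries came from separate cultures.

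Positions are column 2 plus 1, 1-based. Gene bodies came from the RefSeq table of GRCh38.p14 (58957 nuclear rows, 19862 protein-coding; rows of other scaffolds left out). Strand came from the RefSeq promoter table, whose windows run from 250 bases before to 50 after a gene start; it matched 304 of the 373 member genes. A share under 90% was called partial. Fisher's exact tests were two-sided; intervals are exact at 95%.

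The text names the 12 genes richest in sites, the 10 sites highest in deleted tags, the 12 lowest in deleted share, up to 4 genes per list, 5 genes on each side of the limit, and sites with reference sequence or inside small RNA genes; others were chosen after their values were seen. Some genes that this rule picks are not reported here. The members, 17 gene lists and tests were chosen with earlier results of these data known, and 8 lists were added later. Assignment was tested on simulated data. Python 3.11.15, numpy 2.4.6, pandas 2.3.3, scipy 1.17.1 and matplotlib 3.10.9 were used. Bases at the other sites and exon boundaries were not analysed here.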

Additional observations from a re-analysis of the deposited data

How the results depend on the processing

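No paired analysis was possible because the deposited list is pooled, and for the same reason no replicate could be left out. Of 63 recomputed values, 50 kept their value within the interval or their side of the threshold. Some of these could not change: merging sites within 50 nt or keeping 1 site per gene leaves the percent of genes with a site as it was. The shift of positions by 1 base returned the main value of every result. The percent of short genes with a site, 4.2 as reported, was 2.08 with more deleted tags than the median, 3.34 without overlapping genes and 3.71 under 15 kb. Sites per Mb, 6 as reported, were 2.68 with more deleted tags than the median, 5.03 with 1 site per gene and 5.03 without overlapping genes; the first 2 settings remove sites by construction. The partial share, 9.66% as reported, was 7.04% with more deleted tags than the median, 18.2% at 100 tags or more, 3.6% when only shares under 40% counted and 25.8% when any share under 100% did. The difference from longer genes lost its call only under that last setting (3.83 points, Fisher's exact test, p = 0.0816); under the other 12 p ranged up to 0.0347. The percent of sites on the gene's strand was 98.3 without overlapping genes and 96.3 without genes overlapping another protein-coding gene, a setting chosen after seeing the data. The percent past the midpoint stayed within its interval in all settings run. At least 13 deleted tags per site limit which low shares can be seen.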
